A study of Homo sapiens with 6 samples.

Results

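The replication-dependent histone genes are 67 genes, of 60651 gene identifiers in the deposited counts, whose symbol is H1-1 to H1-6 or is H2AC, H2BC, H3C or H4C followed by a number. They comprised 6 genes of the linker histone H1, 15 of H2A, 18 of H2B, 13 of H3 and 15 of H4. Their RNA was measured in SK-N-AS, an established human neuroblastoma cell line that had been stably transfected with a tetracycline repressor and a MYCN gene that tetracycline switches on. All 6 libraries came from cells with this system, which were kept as single clones under G418 and blasticidin. The 3 control libraries, labelled ETOH, and the 3 MYCN-induced libraries, labelled Tet, were taken at 120 h, and the protocol gives the induction as 5 days. Ribosomal RNA was digested and the remaining total RNA was read in pairs of 150 bases, so RNAs without a poly(A) tail were kept. The study describes its replicates as independent experiments. The rule names 2 further genes, H2AC18 and H2AC19, whose identifiers in the annotation used here have no row, and they are not among the 67. Rows of other identifiers lie at the same loci on the same strand, ENSG00000203812.2 with 11 to 54 counts and ENSG00000272196.2 with 9 to 94.5 counts per library, and were not analysed as members.

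Replication-dependent histones are the bulk histones that package new DNA during S phase. Each nucleosome core holds H2A, H2B, H3 and H4, and H1 binds the DNA between cores. Their genes lie in clusters, mostly lack introns and are transcribed at nuclear bodies organized by NPAT when cells enter S phase. Their mRNAs are not polyadenylated but end just after a stem-loop, which is bound by SLBP and cut with the help of the U7 small nuclear RNA. Levels of these mRNAs therefore follow the share of cells in S phase, while variant histones such as H3.3 and H2A.Z are made from ordinary polyadenylated mRNAs.

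The stem-loop is the sequence that sets this mRNA class apart, and it was read from GRCh38 behind the stop codon of each gene. It was found in 64 of the 67 genes, 23 to 63 bases past the stop codon, and was not found in H2BC10, H3C6 and H4C13 within 200 bases by this search. The 16 bases of stem and loop are in capitals below, with 5 bases on either side, for genes that the results turn on.
H1-4: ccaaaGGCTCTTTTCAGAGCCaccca
H2AC17: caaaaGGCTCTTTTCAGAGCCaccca
H2BC12: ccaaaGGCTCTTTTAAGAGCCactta
H3C2: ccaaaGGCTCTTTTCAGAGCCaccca
H4C5: tcaaaGGCCCTTTTCAGGGCCgccca
H4C9: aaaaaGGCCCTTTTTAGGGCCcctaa
They lie at chr6:26157090-26157115 on the plus strand for H1-4, at chr6:27892699-27892724 on the minus strand for H2AC17, at chr6:27146361-27146386 on the minus strand for H2BC12, at chr6:26031592-26031617 on the minus strand for H3C2, and on the plus strand at chr6:26204996-26205021 for H4C5 and chr6:27139649-27139674 for H4C9. All 14 stem-loops found in H4 genes had GGCCC and GGGCC as stem arms, whereas 48 of the 50 found in H1, H2A, H2B and H3 genes had GGCTC and GAGCC. The annotated gene model ended within 100 bases of the stem-loop in 40 genes and ran further in 24. Counts of the latter can include longer, polyadenylated transcripts of the same gene. A level per kb of exon is also lower where a model is long, so rankings per length depend on the models.

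The genes fall into 6 groups on the genome when neighbours less than 500 kb apart are joined. The largest held 34 genes at chr6:25726063-26285638. A group of 5 lay at chr6:27125897-27147562 and one of 16 at chr6:27807444-27893891. On chromosome 1, 9 genes lay at chr1:149782689-149887965 and 2 at chr1:228456979-228460470, and H4C16 stood alone at chr12:14767999-14771131. Exons of 13 genes shared bases with another gene, on the opposite strand in 9 of them. The header of the counts sets no strand option, so reads of such genes cannot be told from those of their partner. Because only unique alignments were counted, genes with near-identical copies are undercounted. All 150-base windows of H3C14, H3C15, H4C14 and H4C15 occur more than once in the genome, as did 88.8% of those of H4C11 and 89.5% of those of H4C12, and the levels of these genes are uncertain. Repeated windows also made up 56.0% in H2AC14, 51.7% in H2AC13, 27.7% in H2BC18, 14.1% in H3C13 and 1.4% in H2BC26. Levels of these genes may be too low in part.

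Library totals ran from 64500589 to 102249336 counted pairs, of which the 67 genes took 0.287% to 0.556%. MYCN was at 30.3 to 35.5 CPM (counts scaled to library size with TMM normalization) in the controls and at 199 to 221 CPM in the induced libraries, so the induction was seen in each library. All 10 adrenergic neuroblast markers and 9 of 10 mesenchymal markers passed the filter on counts, with CD44 at 0, and their summed levels ran from 1007 to 1419 CPM and from 1719 to 2512 CPM. Of the 9 tested mesenchymal markers edgeR called 0 higher and 1 lower, FN1 (log2 fold change -0.71, adjusted p = 0.033), a call that was lost without any library but MYCN-induced replicate 3. Summed markers of leukocytes, epithelial cells and endothelial cells reached at most 2.39, 0.609 and 1.71 CPM. On the first principal component of all tested genes, which held 49.4% of the variance, MYCN-induced replicate 3 scored 45.7 and its other replicates 7.7 and 7.8. Results are therefore also given without it.

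No histone gene passed the test for a change on MYCN induction. At least 10 counts in 3 libraries were reached by 56 of the 67 genes, and edgeR's quasi-likelihood test called 0 of them higher and 0 lower at an adjusted p of 0.05. Over all 29086 genes tested, it called 3.40% (1.02% higher and 2.38% lower). None of the 56 had an unadjusted p under 0.05, against 18.7% of all genes, and DESeq2 also called 0, with none under 0.05 before adjustment. The smallest adjusted p by edgeR was 0.316, for H2AC20. The median log2 fold change of the 56 genes was 0.26 and that of all tested genes was 0.00, with single genes from -0.55 to 0.86. It was above 0 in 42 of the 56 genes, against 49.9% of all genes. The conditions did not overlap in 1 of the 56, H3C6, against 26.2% of all genes. Standard errors had a median of 0.27 over these genes and 0.17 over all genes. In bulk RNA, the share of cells in S phase and the amount of histone mRNA per cell cannot be told apart.

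**Figure D1:**
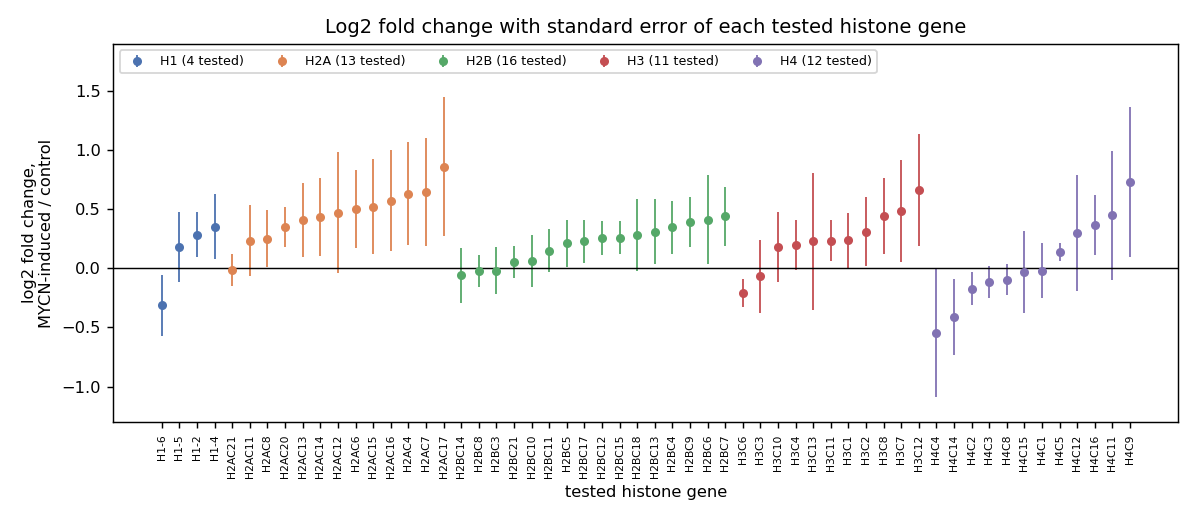
Log2 fold change of MYCN-induced over control (vertical axis) for each of the 56 tested histone genes, coloured by class and ordered by value within a class. Points are edgeR estimates and bars are standard errors. Values lie between -0.55 and 0.86, and 42 of 56 are above 0, with long bars for many H2A and H3 genes.

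The wide errors came from differences between replicates of the same condition. Summed over the 67 genes, control replicates 1, 2 and 3 were at 2804, 3724 and 4550 CPM and MYCN-induced replicates 1, 2 and 3 at 4355, 5403 and 3427 CPM. The conditions overlapped, with means of 3693 ± 873 CPM (SD, n = 3) in the controls and 4395 ± 989 CPM (SD, n = 3) in the induced cells. The highest library was 1.62 times the lowest among the controls and 1.58 times the lowest among the induced libraries, while the induced mean was 1.19 times the control mean. Among the 53 genes with a mean of at least 1 CPM, control replicate 1 was the lowest library for 38 and MYCN-induced replicate 2 the highest for 37, and both held for 34. Of all 18537 tested genes at that level, 20.7% had their lowest value in the former library and 21.3% their highest in the latter. The genes moved together across libraries, as 87.1% of the variance of their log2 levels lay on 1 component. The median fold change therefore turned on single libraries. It was 0.09 without control replicate 1 and 0.02 without MYCN-induced replicate 2, where 29 genes were above 0 and 27 below. It was 0.42 without control replicate 3 and 0.44 without MYCN-induced replicate 3, with 49 above 0 and 7 below in each case. No histone gene was called in any of these fits. Without control replicate 3, 13 of the 56 had an unadjusted p under 0.05, against 14.6% of all genes in that fit, and without MYCN-induced replicate 3 it was 6 of the 56, against 25.5%. It was 0 without control replicate 1 or 2, against 14.7% and 11.8% of all genes, 3 without MYCN-induced replicate 1, against 16.9%, and 1 without MYCN-induced replicate 2, against 17.9%. Summed mitochondrial RNA was at 137699, 133022 and 136262 CPM in control replicates 1 to 3 and at 129801, 115178 and 152224 CPM in the induced replicates. Among the induced libraries it was lowest where the histone sum was highest and highest where that was lowest, while the controls lay close together, and its part in the histone levels was not tested.

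**Figure D2:**
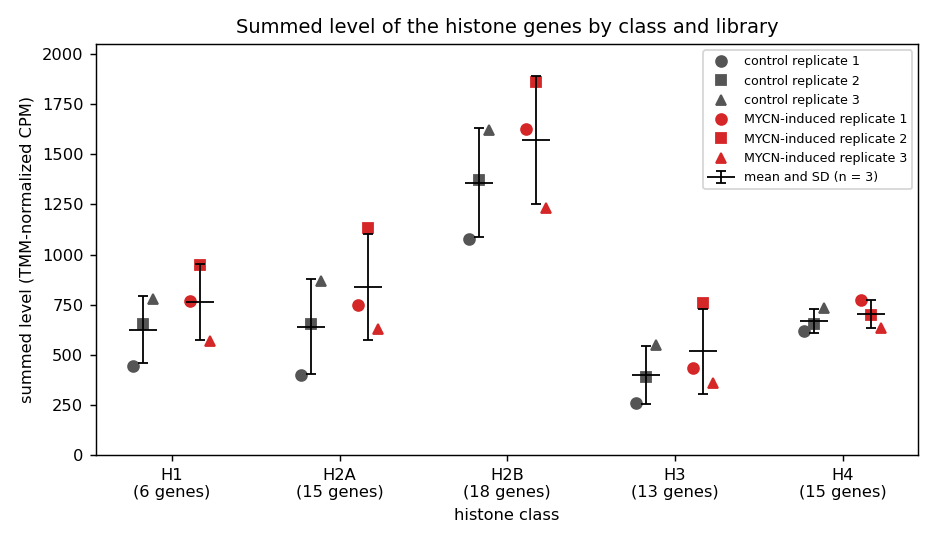
Summed level in TMM-normalized CPM (vertical axis) of the genes of each histone class, with 1 symbol per library, controls in grey and MYCN-induced libraries in red, and bars giving mean and SD of 3 libraries. The conditions overlap in every class, and H4 has the narrowest spread, from 620 to 774 CPM.

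The linker histone class was carried by 3 genes. H1-4 (chr6:26156329-26157115, plus strand, a single exon) was the most abundant H1 gene per length, at 381 CPM per kb of exon over the 6 libraries, followed by H1-2 at 311 and H1-5 at 203 CPM per kb. H1-4 made up 42.9% of the H1 counts on average, with library shares from 36.6% to 50.4%. Its level was 163, 264 and 363 CPM in control replicates 1 to 3 and 301, 421 and 287 CPM in MYCN-induced replicates 1 to 3. The lowest value was a control and the highest an induced library, and the other four overlapped (log2 fold change 0.35, standard error 0.27). H1-6, the testis-specific H1, stood at 2.47 to 5.65 CPM and had the lowest fold change of the class at -0.31, while H1-1 and H1-3 were too low to test. Together the 6 genes were at 625 ± 168 CPM in the controls and 763 ± 190 CPM in the induced cells (SD, n = 3).

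H2A genes had the largest median fold change of the 5 classes and among the widest spreads. Of 15 genes 13 were tested, with a median fold change of 0.47 on the log2 scale, and 12 of 13 were above 0. Their sum was 401, 655 and 869 CPM in control replicates 1 to 3 and 751, 1135 and 630 CPM in the induced replicates, and it was 2.17 times higher in the highest than in the lowest control. H2AC8 (chr6:26216975-26217483, plus strand) was the most abundant per length at 387 CPM per kb, with H2AC20 and H2AC14 at 169 and 168 CPM per kb. Because 56.0% of the windows of H2AC14 are repeated in the genome, its place in this order is uncertain. H2AC17 (chr6:27892699-27893185, minus strand) had the largest fold change of all 56 genes. It was counted at 14.2, 30.9 and 60 CPM in the controls and at 36.2, 117 and 38.1 CPM in the induced libraries. Only MYCN-induced replicate 2 exceeded the highest control, and the fold change of 0.86 had a standard error of 0.59 (edgeR adjusted p = 0.496). Without that library it was 0.08, and without control replicate 3 it was 1.5. Exons of H2AC17 overlap those of H3C12, so part of its counts may belong to that gene's longer model. H2AC21 was at the other end of the class, between 19.6 and 26.7 CPM in all libraries with a log2 fold change of -0.01.

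H2B genes carried the most counts, 36.2% of the summed level of all 67 genes. The class sum was 1358 ± 272 CPM in the controls and 1573 ± 319 CPM in the induced cells (SD, n = 3), with 16 of 18 genes tested and a median log2 fold change of 0.24. H2BC12 (chr6:27146361-27146855, minus strand) was the most abundant per length at 355 CPM per kb, before H2BC14 at 220 and H2BC17 at 139 CPM per kb. In CPM alone H2BC18 and H2BC21 were higher, with means of 193 and 189 CPM against 176 CPM for H2BC12. Their models list 3196 and 2194 bases, and that of H2BC12 lists 495. H2BC12 was at 126, 159 and 195 CPM in the controls and at 195, 204 and 176 CPM in the induced libraries. Apart from the lower control replicates 1 and 2, its values lay close together. H2BC7 had the largest fold change of the class (0.44, standard error 0.25, edgeR adjusted p = 0.402) and H2BC14 the lowest at -0.06. H2BC26 had no count in any library, which allows at most 0.0287 to 0.0462 CPM per library for 3 counts.

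The H3 genes at the chromosome 6 groups encode a single protein, while H3C13, H3C14 and H3C15 on chromosome 1 encode the H3.2 form. The class sum was 260, 388 and 548 CPM in control replicates 1 to 3 and 435, 759 and 361 CPM in the induced replicates. MYCN-induced replicate 2 was the only library above the highest control. H3C2 (chr6:26031589-26032099, minus strand) led the class at 264 CPM per kb and 29.8% of its counts, with 88.1, 113 and 159 CPM in the controls and 122, 217 and 108 CPM in the induced libraries. H3C7 and H3C12 followed at 120 and 112 CPM per kb. H3C12 had the largest fold change of the class, 0.67 with a standard error of 0.47. This fold change was 0.01 without MYCN-induced replicate 2 and 1.12 without control replicate 3. Exons of H3C12 overlap those of H2AC17 on the same strand, so part of its counts may belong to that gene. Among the H3 genes that share no exon bases the largest fold change was 0.48. H3C6 (chr6:26224199-26227473, plus strand), whose listed model has 3 exon entries and in which no stem-loop was found, had little spread between replicates. It was at 6.83, 7.28 and 7.06 CPM in the controls and 6.53, 6.49 and 5.26 CPM in the induced libraries, with every induced value below every control (log2 fold change -0.21, standard error 0.12, edgeR adjusted p = 0.393).

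H4 was the class with the most even level. Its sum was 620, 653 and 734 CPM in control replicates 1 to 3 and 774, 698 and 634 CPM in the induced replicates, a range of 1.25 times over the 6 libraries against 2.92 times for H3 and 2.84 times for H2A. Per kb of listed exon, H4C3 (chr6:26103933-26104337, plus strand) was the most abundant H4 gene at 316 CPM per kb, before H4C5 at 220 and H4C2 at 120 CPM per kb. This order depends on the models. That of H4C5 lists 1487 bases and runs 1022 bases past its stem-loop, while that of H4C3 lists 405 bases. In CPM alone H4C5 was the higher, with a mean of 328 CPM against 128 CPM for H4C3. H4C5 (chr6:26204552-26206038, plus strand) took 47.9% of the class counts and was the steadiest of the 53 genes. Its values were 312, 304 and 320 CPM in the controls and 373, 313 and 344 CPM in the induced libraries, with a log2 fold change of 0.14 (standard error 0.08, edgeR adjusted p = 0.397). At the opposite end H4C9 (chr6:27138588-27139881, plus strand) had the widest spread of the 53 genes. It was at 10.6, 26.8 and 57.8 CPM in the controls and 31.9, 95.8 and 30.1 CPM in the induced libraries, 9.03 times higher in the highest than in the lowest library. Of the 12 H4 genes tested, 5 were above 0 and 7 below, with a median log2 fold change of -0.02. Leaving out H4C5 took the induced over control ratio of the class sum from 1.05 to 1.01 and its range over libraries from 1.25 to 1.43 times.

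Genes of the H4 class encode the same protein of 103 residues in 14 of 15 cases, all but H4C7, yet they differ in base composition. The first 60 coding bases of 4 of them show this. Capitals mark G or C at the third position of a codon.
H4C3: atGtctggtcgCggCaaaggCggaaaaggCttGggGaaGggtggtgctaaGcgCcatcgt
H4C5: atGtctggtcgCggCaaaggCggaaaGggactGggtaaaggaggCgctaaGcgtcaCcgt
H4C1: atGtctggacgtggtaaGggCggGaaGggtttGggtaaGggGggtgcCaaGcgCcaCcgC
H4C9: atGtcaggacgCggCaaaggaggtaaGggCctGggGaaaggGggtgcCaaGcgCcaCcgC
These bases lie on the plus strand of GRCh38 at chr6:26103948-26104007 for H4C3, chr6:26204645-26204704 for H4C5, chr6:26021679-26021738 for H4C1 and chr6:27139309-27139368 for H4C9. Compared with H4C3, the stretch differs at 9 bases in H4C5, 12 in H4C1 and 11 in H4C9. Over the whole coding sequence the third position was G or C in 56.3% of codons in H4C3, 62.1% in H4C5, 74.8% in H4C1 and 83.5% in H4C9.

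The even H4 genes were those with the lower GC content. H4C2, H4C3, H4C5 and H4C8, with 55% to 57.6% GC in the coding sequence, had a within-condition SD of 0.09 to 0.22 on the log2 scale and together held 87.0% of the H4 level. Their sum was 581, 579 and 616 CPM in control replicates 1 to 3 and 689, 548 and 565 CPM in the induced replicates. H4C1, H4C9, H4C11, H4C12 and H4C16, with 61.2% to 64.7% GC, had an SD of 0.39 to 1.07. Their sum was 38.1, 73.9 and 116 CPM in the controls and 84.3, 149 and 68.3 CPM in the induced libraries, 3.91 times higher in the highest than in the lowest library. The latter genes were also the less abundant ones, so GC content and level cannot be told apart within H4. Of these 5 genes H4C11 and H4C12 have repeated windows, while H4C1, H4C16 and the most variable, H4C9, have none. Among the even genes, the models of H4C5 and H4C8 run 1022 and 7522 bases past the stem-loop, and those of H4C2 and H4C3 run 86 and 5 bases. Among the others, H4C9 and H4C16 run 212 and 2725 bases past it. The part of longer transcripts in these levels was not tested.

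**Figure D3:**
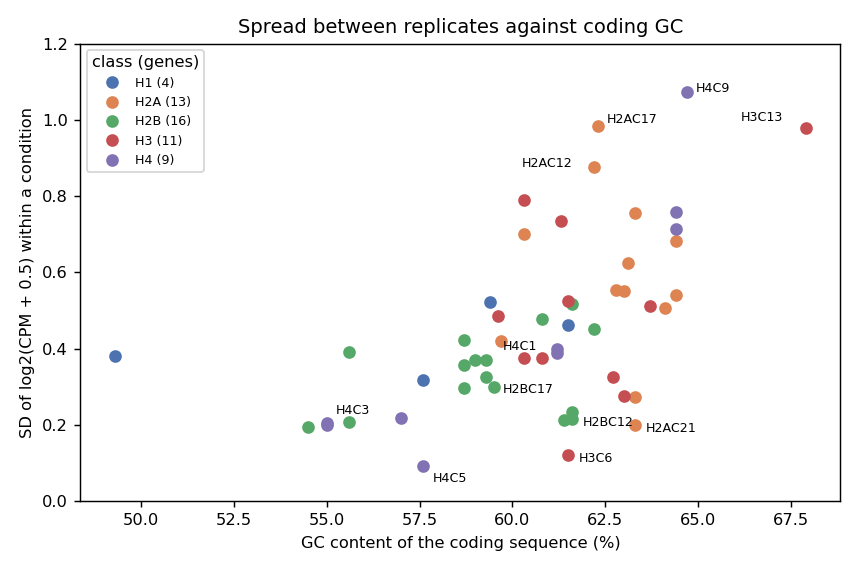
Within-condition SD of log2(CPM + 0.5) (vertical axis) against GC content of the coding sequence in percent (horizontal axis) for the 53 histone genes with a mean of at least 1 CPM, coloured by class. The spread runs from 0.09 in H4C5 to 1.07 in H4C9, and genes above 62% GC include both steady ones such as H2AC21 and the most variable ones.

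Across the 53 genes the spread followed the GC content of the coding sequence with a Spearman correlation of 0.55, the largest among the features compared. It was 0.15 for GC at the third codon position, so the third positions printed for H4 did not track spread in the same way across classes. For exon GC it was 0.36, for the share of repeated windows 0.38, for mean CPM -0.22 and for exon length -0.18. The ratio of control replicate 3 to control replicate 1 followed coding GC with 0.63 and the ratio of MYCN-induced replicate 2 to replicate 3 with 0.38. The genes share their libraries and in part their sequence, so these are descriptions of 6 libraries. Within classes the correlation of spread with coding GC was 0.89 over 9 H4 genes and 0.28 over 16 H2B genes. It was 0.00 over 11 H3 genes and -0.30 over 13 H2A genes, so it did not hold in every class. The median SD was 0.26 in 12 genes under 59% coding GC, 0.39 in 22 genes from 59% to under 62%, and 0.55 in 19 genes at 62% or more. All 18537 genes at 1 CPM or more had a median SD of 0.13, with a 90th percentile of 0.30 that 38 of the 53 histone genes exceeded.

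Libraries also differed by GC content outside the histone genes. Among all genes at 1 CPM or more, the 413 genes with exon GC of 65% or more had a median deviation from their 6-library mean, on the log2 scale, of -0.48 in control replicate 1, 0.04 and 0.26 in control replicates 2 and 3, and -0.12, 0.12 and 0.17 in MYCN-induced replicates 1 to 3. The 3184 genes under 40% GC deviated by 0.05 in control replicate 1 and 0.07 in MYCN-induced replicate 2. The 7 histone genes with 64% coding GC or more deviated by -1.10 in control replicate 1 and 0.88 in MYCN-induced replicate 2. Their exon GC ran from 46.8% to 64.4%, so the bins of exon GC and of coding GC are not like for like. With each library corrected for exon GC, edgeR called 0 of the 56 genes and 2 had an unadjusted p under 0.05. The median log2 fold change was 0.29 with 47 genes above 0. Exon GC and coding GC part in genes with long models, as in H4C9 with 46.8% and 64.7%. Its log2 fold change was 0.73 before and 0.75 after the correction. The correction therefore could not test the pattern with coding GC. Short RNAs without a poly(A) tail outside the class, named here after their values were seen, were also lowest in control replicate 1. RMRP was at 938 CPM there and at 1910 to 2917 CPM in the other libraries, and RN7SK at 11052 CPM against 15023 to 21614 CPM. Unlike the histone genes, neither was highest in MYCN-induced replicate 2, where they stood at 1975 and 15023 CPM. The part of library composition in the spread of histone levels was not tested beyond the correction for exon GC.

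**Figure D4:**
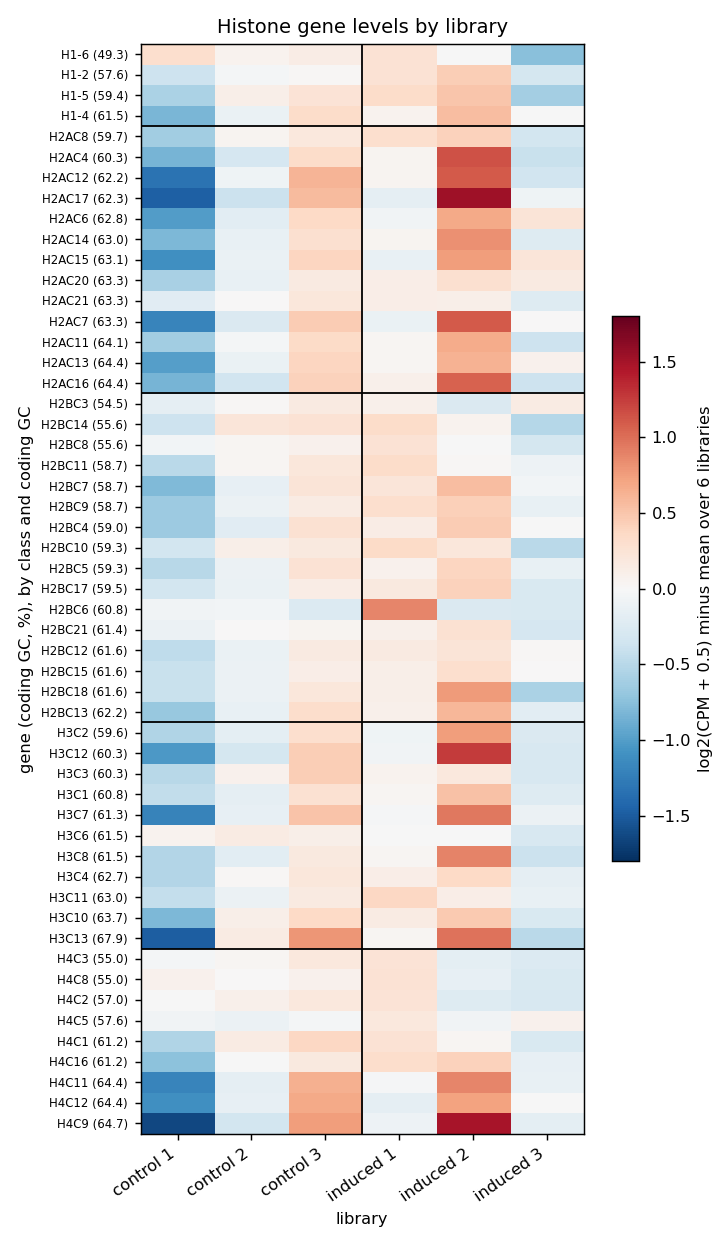
Deviation of log2(CPM + 0.5) from the mean over 6 libraries (colour, blue below and red above) for the 53 histone genes with at least 1 CPM (rows, by class and then by coding GC, given in brackets in percent) in each library (columns, controls left of the line). Control replicate 1 is the lowest library for 38 genes and MYCN-induced replicate 2 the highest for 37, and H4C2, H4C3, H4C5 and H4C8 stay pale.

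Many H2A and H2B genes lie head to head and share the stretch between their starts. By the deposited gene models there were 11 such pairs with starts less than 500 bases apart, and 9 had both genes at 1 CPM or more. H2AC15 and H2BC15 also lie on opposite strands, but their deposited models overlap, so they were not counted as a pair. In all 9 pairs the H2A gene had the wider spread between replicates. H2AC17 and H2BC17, 240 bases apart, had SDs of 0.98 and 0.30, and H2AC12 and H2BC12, 251 bases apart, 0.88 and 0.23. H2BC17 was at 50.8, 58.8 and 70.0 CPM in the controls and 72.2, 85.7 and 52.7 CPM in the induced libraries, a range of 1.69 times, against 8.19 times for its partner. In the 9 pairs the H2A gene also had the higher coding GC content, and its log2 fold change was the higher one in each.

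The stretch between the starts of H2AC17 and H2BC17 is shown as RefSeq gives it for GRCh38.p14, at chr6:27893186-27893424 in the direction of H2BC17. Capitals mark the TATA box (searched as TATAAA), the CCAAT box (as CCAAT) and the octamer (as ATTTGCAT), each on either strand.
H2BC17 upstream: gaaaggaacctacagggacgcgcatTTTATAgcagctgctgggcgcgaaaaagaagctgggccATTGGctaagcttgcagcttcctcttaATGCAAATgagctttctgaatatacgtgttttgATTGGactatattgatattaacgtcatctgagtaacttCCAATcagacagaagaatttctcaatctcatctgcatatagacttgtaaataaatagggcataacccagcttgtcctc
The TATA box stood once, on the strand of H2AC17, the CCAAT box 3 times, and the octamer, which OCT1 binds in H2B promoters, once. Promoter windows of 300 bases, 250 before and 50 after the start, were listed for 62 of the 67 genes and searched on both strands. The TATA box was in 64.5% of them against 12% of all 27305 promoters, the CCAAT box in 83.9% against 35.7%, and the octamer in 41.9% against 1.8%. All H1, H2A, H2B and H3 promoters listed held the CCAAT box, as did 3 of 13 H4 promoters, and the octamer was in 11 of 14 H2A and 14 of 18 H2B promoters. CACGTG, the E-box that MYC proteins bind, was in 0 of 62 and in 7.4% of all promoters, which says only that these letters are not in these windows.

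By position on the genome, the conditions overlapped in each of the 5 groups with more than 1 count. The 34 genes at chr6:25726063-26285638 made up 57.4% of the summed level and were at 2140 ± 441 CPM in the controls and 2504 ± 434 CPM in the induced cells (SD, n = 3), with a median log2 fold change of 0.23 over 28 tested genes. Farther along the chromosome, the 16 genes at chr6:27807444-27893891 were at 736 ± 239 and 919 ± 301 CPM, with a median of 0.31 over 15 tested. The 5 genes at chr6:27125897-27147562 were at 341 ± 116 and 427 ± 114 CPM (median 0.26), and the 9 genes at chr1:149782689-149887965 at 467 ± 74.9 and 534 ± 146 CPM (median 0.06 over 7 tested). H4C16 on chromosome 12 was at 8.70 ± 2.77 and 11.2 ± 2.29 CPM. The 2 genes at chr1:228456979-228460470 were all but silent, with 1 count in all. Levels were concentrated in few genes, as 23 of the 67 made up 80% of the summed level.

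Genes of the machinery that makes and processes histone mRNA had no call. Of 35 listed genes for transcription, 3′ end formation and decay of these mRNAs, all 35 were tested and edgeR called 0, with 1 at an unadjusted p under 0.05 and a median log2 fold change of 0.04. SLBP, the stem-loop binding protein, was at 46.6, 46.2 and 47.6 CPM in the controls and 53.0, 54.0 and 40.2 CPM in the induced libraries. Its values for MYCN-induced replicates 1 and 2 were above the controls and that for replicate 3 below. NPAT, the organizer of histone gene transcription, lay between 37.9 and 42.3 CPM in all libraries, CASP8AP2 between 11.3 and 16.4 CPM, and the U7 particle proteins LSM10 and LSM11 between 10.4 and 15.7 CPM and between 15.2 and 17.6 CPM. ZNF473, another factor of the U7 machinery, lay between 38.8 and 45.9 CPM. The U7 RNA gene RNU7-1 was counted at 0.739 to 1.2 CPM. The summed level of the list differed by 1.07 times between the highest and the lowest library, against 1.93 times for the histone genes. The 27 histone chaperones and modifiers of new histones were all tested, with 0 called and 0 under an unadjusted p of 0.05, and a median log2 fold change of 0.05.

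Histone variants that the rule does not name likewise showed no call. Of 29 listed, 27 had a row, 10 were tested and edgeR called 0, with 2 at an unadjusted p under 0.05 and a median log2 fold change of 0.06. H3-3A and H3-3B, which encode H3.3, were at 265 to 331 CPM and 343 to 398 CPM. H2AZ2 was at 251, 249 and 247 CPM in the controls and 227, 225 and 180 CPM in the induced libraries, with no overlap but an edgeR adjusted p of 0.224 (log2 fold change -0.24, standard error 0.10). The other gene under an unadjusted p of 0.05, H2BK1, is named after its values were seen and was higher, at 0.156, 0.107 and 0.140 CPM in the controls and 0.229, 0.381 and 0.216 CPM in the induced libraries. Its conditions did not overlap either, and its edgeR adjusted p was 0.137 (log2 fold change 1.04, standard error 0.33). H2AZ1 was at 126 to 158 CPM (log2 fold change 0.13), MACROH2A1 at 255 to 291 CPM and the centromeric CENPA at 9.93 to 17.2 CPM. H2AX and H1-10, whose lowest value was also in control replicate 1, were at 8.19 to 14.8 CPM and 4.66 to 11.0 CPM.

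S-phase genes gave another view of the same libraries. All 40 listed genes for licensing, DNA synthesis and nucleotide supply were tested, 0 were called by edgeR and 0 had an unadjusted p under 0.05, with a median log2 fold change of -0.01. Their sum was 2771, 2881 and 2883 CPM in control replicates 1 to 3 and 3072, 3213 and 2254 CPM in the induced replicates. Among the controls it ranged 1.04 times while the histone genes ranged 1.62 times, and among the induced libraries both were highest in replicate 2 and lowest in replicate 3. PCNA, the sliding clamp, was at 83.4, 93.3 and 96.7 CPM in the controls and 104, 124 and 63.3 CPM in the induced libraries. MYCN-induced replicates 1 and 2 were above all controls and replicate 3 below them.

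**Figure D5:**
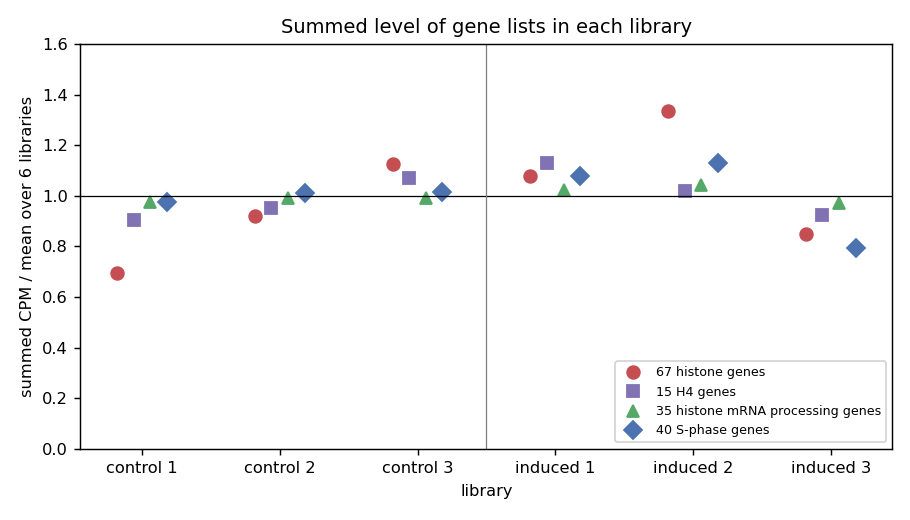
Summed CPM divided by the mean over 6 libraries (vertical axis) in each library (horizontal axis, controls left of the line) for the 67 histone genes, their 15 H4 genes, 35 histone mRNA processing genes and 40 S-phase genes. The histone sum ranges 1.93 times over the libraries, the processing genes 1.07 times and the S-phase genes 1.43 times, with MYCN-induced replicate 3 the lowest for the S-phase genes.

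Of the 21 tested genes of the G1 to S transition, edgeR called 0 higher and 1 lower, CDKN1A, the inhibitor p21 of cyclin-dependent kinases. It was at 10.8, 11.7 and 11.2 CPM in the controls and 5.09, 4.94 and 7.87 CPM in the induced libraries, with no overlap (log2 fold change -0.91, standard error 0.18, edgeR adjusted p = 0.0411). The call was lost when any library other than MYCN-induced replicate 3 was left out, with values from -0.94 to -0.79 and adjusted p from 0.0955 to 0.188. Over the 5 lists beside the histone genes, 130 genes were tested, and DESeq2 called CDKN1A alone among them. Without MYCN-induced replicate 3, 9 of them were called higher, against 3.68% of all genes, and 2 lower, against 4.44%, and these are named after their values were seen. Those called higher were the replication genes MCM4, MCM10, RFC4 and RFC5, the cyclin CCNA2, the H1 and H3-H4 chaperone NASP, the variant H2AZ1 and the Sm proteins SNRPE and SNRPF, with log2 fold changes from 0.23 to 0.37. CDKN1A (-1.16) and CDK6 (-0.26) were called lower. No histone gene of the 67 was called in that fit.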

How the data were processed

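RNA of 3 control and 3 MYCN-induced SK-N-AS libraries was analysed from the deposited expected counts, meaning read pairs per gene over exons. According to the file headers, the authors counted unique STAR alignments on GRCh38 with featureCounts v1.6.4, gave each gene an equal fraction of a pair lying on several genes, and left the strand option unset. The submitters' processing notes name STAR 2.7.1a and featureCounts 1.5.1, and the study's methods list further options, including a strand option. The deposited counts were used as they are and were rounded to whole numbers. They were not whole in at least 1 library for 41 of the 67 histone genes. Of 60651 identifiers, 99.72% matched GENCODE release 44, which gave symbols, and 44 of the 67 genes had the same coordinates there. The 92 spike-in rows held 0 counts.

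A gene entered the test if 3 or more libraries held 10 counts or more, and edgeR 4.0.16 was run in R 4.3.3 (TMM normalization, quasi-likelihood test, two-sided, Benjamini-Hochberg adjustment over all 29086 genes, threshold 0.05), without a replicate block. Standard errors were derived from the fold change and the F statistic, as the size of the former over the root of the latter. Sums are TMM-normalized CPM. Spread is the pooled SD of log2(CPM + 0.5) within conditions. Class and position sums, shares, sequence features and correlations are descriptions without a test. The histone rule, the gene lists (from general knowledge) and the choice of comparisons were made with earlier results of these data known. Besides genes marked as chosen later, the genes named are, per class, the 3 highest in CPM per kb of exon and the tested genes with the largest and the smallest fold change among those at 1 CPM or more, a fixed set of histone regulators and variants, list genes past the threshold, and genes at the ends of a described range. Some genes that this rule selects are not reported here.

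Totals of 64500589 to 102249336 counts make counting error small for expressed genes, and replicates set the precision, with a biological coefficient of variation of 0.153. Counts of replicates were farther apart than sampling noise gives (chi-square per gene 12.1 to 145.6), and each was counted as 1 sample. The p-values measure the spread between these cultures. On simulated counts of 28655 genes for this comparison, of which 200 were changed 2-fold, edgeR recovered 95.0%. Recovery of a change in the histone genes was not tested. At 1 CPM or more their median within-condition SD of log2 levels was 0.40, against 0.13 over all tested genes. Alternatives were library size only, upper-quartile normalization, DESeq2 1.42.0, testing without a count filter, requiring 100 counts in each library, a replicate block, thresholds of 0.01 and 0.1, leaving out each library, class sums without the largest gene or without genes that share exons, and, added after seeing the data, a GC correction (lowess on exon GC, span 0.3).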

Additional observations from a re-analysis of the deposited data

How the results depend on the processing

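No histone gene was called in either direction under any alternative run, and the count of genes with an unadjusted p under 0.05 rose from 0 to at most 13, without control replicate 3. The median log2 fold change of the tested histone genes stayed above 0, at 0.23 to 0.29 under the other scalings, filters, DESeq2 and the GC correction, and at 0.02 to 0.44 with 1 library left out. Whether replicate numbers pair the libraries could not be settled from 3 libraries per condition, and the labels state no shared batch. Over all tested genes, the deviations of same-numbered libraries correlated at 0.30, 0.01 and 0.09. Over the tested histone genes these values were 0.75, 0.15 and -0.33. Control replicate 3 and MYCN-induced replicate 2, which differ in number, correlated at 0.84 over the histone genes and 0.10 over all. With the replicate number as a block, 0 histone genes were called, 3 had an unadjusted p under 0.05, the median was 0.26 and 840 instead of 990 of all genes were called.

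Of the 5 other lists, the 0 genes called higher became 9 without MYCN-induced replicate 3, and the range with 1 library left out was 0 to 9. The 1 gene called lower, CDKN1A, became 0 to 2 with 1 library left out, 2 at a threshold of 0.1 and 0 at 0.01. The fits with 1 library left out hold fewer libraries, and the cause of these changes was not tested. Class and position sums moved by less than 1 SD between replicates under all alternatives run, but that SD was wide and single libraries took some log2 ratios of induced over control to near 0. Without MYCN-induced replicate 2 the ratio went from 0.38 to -0.0017 for H3, from 0.39 to 0.11 for H2A, from 0.19 to -0.03 for the 9 genes on chromosome 1 and from 0.32 to 0.04 for the 16 genes at chr6:27807444-27893891. Without control replicate 1 it went from 0.29 to 0.09 for H1, and without MYCN-induced replicate 1 from 0.07 to -0.0059 for H4. Without control replicate 3 it rose to 0.68 for H3 and 0.67 for H2A. Over all genes the number called ran from 90 to 2339 with 1 library left out and was 2103 with DESeq2 and 1496 with the GC correction. H1-1, H1-3 and 9 other histone genes were too low to test, and with a median standard error of 0.27 a shift of the size of the median was not detectable in most of the others.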
